A study of Mus musculus with 18 samples.

Results

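The 10 genes described here, Tnnt3, Tnni2, Tnnc2, Mylpf, Myl1, Actn3, Mybpc2, Atp2a1, Casq1 and Pvalb, encode contractile and calcium-handling proteins typical of fast-twitch skeletal muscle fibers. The list names genes for that role, with no threshold on a measured value, and each gene was read by 1 row of the array table, so they made up 10 of the 20259 genes tested. RNA from the quadriceps of male mice on a C57BL/6 background was hybridized at 10 weeks of age to 18 Affymetrix Mouse Exon 1.0 ST arrays, 3 for each of 6 groups. The F66;Dysf-/- mice carried the F66 transgene and lacked dysferlin, a protein of muscle membrane repair. The F66 mice carried the same transgene, which expresses follistatin (Fst), an inhibitor of myostatin and related ligands, from a myosin light chain promoter and lies on the Y chromosome. ACVR2B/Fc-injected Dysf-/- mice and ACVR2B/Fc-injected wt mice received the extracellular part of the activin type IIB receptor fused to an antibody Fc region, at 10 mg/kg (200 µg per injection) once a week from 6 weeks of age. The Dysf-/- mice and the wild-type (wt) mice carried no transgene, and the labels give no treatment for them. The array values were log2 intensities after RMA, a method that corrects the background, makes the arrays alike in distribution and summarizes the probes of a gene.

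Skeletal muscle fibers contract when calcium released from the sarcoplasmic reticulum binds troponin on the thin filament, which lets myosin heads of the thick filament pull. Fast fibers use their own forms of troponin, of the myosin light chains and of the calcium pump, and mouse quadriceps consists mostly of such fibers. Slow fibers use other genes for the same positions, so that the fast and slow forms can be read side by side.

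Promoter sequences were matched in RefSeq (GRCm38.p6) for 7 of the 10 genes, which were Tnnc2, Mylpf, Myl1, Mybpc2, Atp2a1, Casq1 and Pvalb. The 200 bases before the start site are printed for 4 of them. Tnnc2 and Mybpc2 are shown because they were lower in F66;Dysf-/- than in F66 muscle, Mylpf because it had the largest difference between F66 and wt muscle among the 10 genes, and Atp2a1 because its values spanned only 0.0925 log2 units over the 18 arrays, the smallest range of the 10. Capitals mark matches to the E-box CANNTG, the motif that the myogenic factors of the MyoD family recognize and that reads alike on both strands. The stretches lie at chr2:164779735-164779934, chr7:44524670-44524869 and chr7:126463074-126463273 on the minus strand and at chr7:127211408-127211607 on the plus strand.
Tnnc2: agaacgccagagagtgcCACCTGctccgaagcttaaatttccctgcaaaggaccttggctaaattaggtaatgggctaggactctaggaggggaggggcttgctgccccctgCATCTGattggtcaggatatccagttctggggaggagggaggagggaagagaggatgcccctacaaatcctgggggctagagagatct
Mybpc2: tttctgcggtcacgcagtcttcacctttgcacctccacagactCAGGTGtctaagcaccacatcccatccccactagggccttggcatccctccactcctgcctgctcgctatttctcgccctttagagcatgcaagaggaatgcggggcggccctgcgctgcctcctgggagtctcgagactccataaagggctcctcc
Mylpf: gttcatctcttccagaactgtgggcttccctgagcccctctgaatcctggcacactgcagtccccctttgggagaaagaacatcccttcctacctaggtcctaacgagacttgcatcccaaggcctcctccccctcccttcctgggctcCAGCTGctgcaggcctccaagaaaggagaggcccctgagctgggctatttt
Atp2a1: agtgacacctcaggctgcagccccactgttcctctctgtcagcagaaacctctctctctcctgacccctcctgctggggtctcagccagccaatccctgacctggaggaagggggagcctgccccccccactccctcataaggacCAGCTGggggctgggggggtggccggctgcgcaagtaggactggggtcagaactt
An E-box lay in 6 of the 8 start-site windows held for the 7 genes (Pvalb has 2), and 58.2% of all 32851 promoter windows of the same length held one. A match to the MEF2 consensus, searched on both strands, lay in 1 window of Pvalb and in 2.29% of all windows. The MEF3 motif TCAGGTT, which Six4 can bind, lay on neither strand of any of the 8 windows and was present in 2.79% of all windows.

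The labels were checked against Dysf itself, which lay between 6.76 and 7.10 on the 9 arrays of Dysf-/- backgrounds and between 8.48 and 8.91 on the other 9. Fst lay between 6.12 and 6.38 in F66;Dysf-/- muscle and between 5.92 and 6.33 in F66 muscle, against 5.10 to 5.85 on the 12 arrays without the transgene. The 10 fast fiber genes were among the brightest features on every array. Their means over the 18 arrays lay between the 98.2 and 99.96 percentiles of all 115830 rows, and the highest value of any row was 14.73. The part of this brightness in the size of the differences below was not tested. The array medians were lowest in F66;Dysf-/- muscle, at 5.27 to 5.31, against 5.33 on the F66 arrays and 5.36 to 5.45 on the 12 others, and centring on these medians is given below as another scaling.

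**Figure D1:**
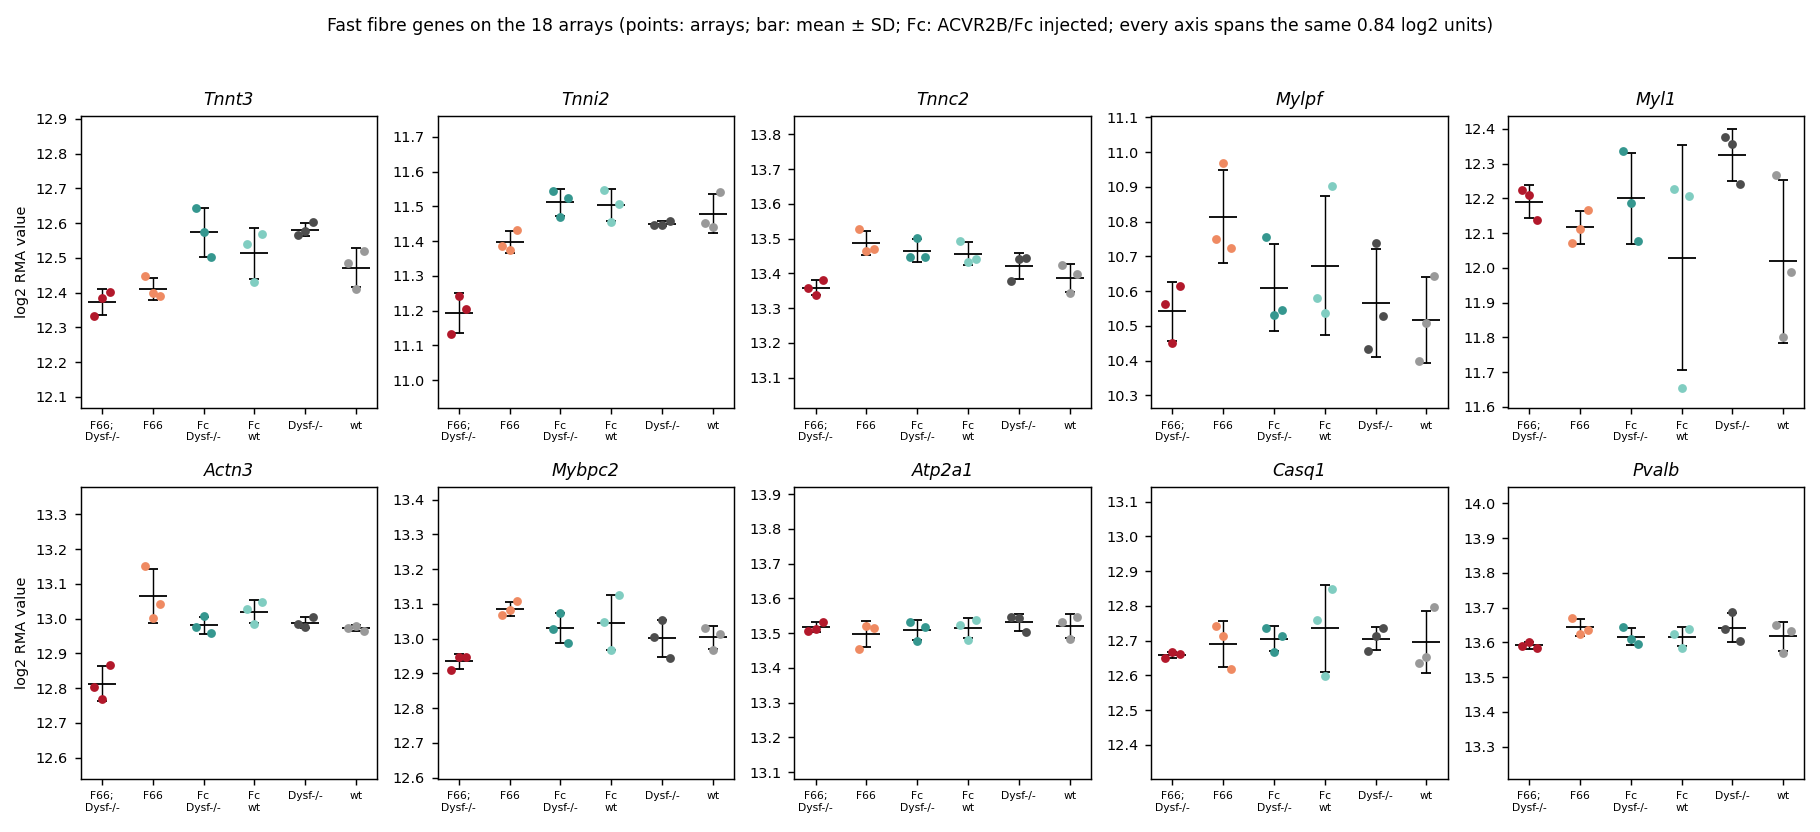
Log2 RMA values of the 10 genes (y axis, the same span of 0.84 log2 units in every panel) in the 6 groups (x axis, Fc for ACVR2B/Fc injected), with 1 point per array and a bar for the mean ± SD of 3 arrays. The 3 F66;Dysf-/- arrays lay below all 15 others for Tnni2 and Actn3, while Atp2a1 hardly moved. The share of all genes whose arrays lay apart in this way was not counted.

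Over the 6 groups, 3 of the 10 genes differed, namely Tnni2, Tnnt3 and Actn3 (limma moderated F test, Benjamini-Hochberg adjusted over 20259 genes, adjusted p = 0.000492, 0.0169 and 0.00807). The same test called 49.2% of all genes on the deposited scale. After quantile normalizing again 6 of the 10 were called, and the share of all genes called there was not counted. The 7 others had adjusted p-values between 0.129 for Tnnc2 and 0.981 for Atp2a1. Leaving out F66;Dysf-/- replicate 1 lost the call of Tnnt3 (adjusted p = 0.0527), and leaving out F66;Dysf-/- replicate 2 lost that of Actn3 (adjusted p = 0.0508). When the 115830 rows of the table were all tested in place of the named genes, none of the 10 was called (lowest adjusted p = 0.0555, Tnni2), and none was called after each array was centred on its median.

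Among the troponins, the complex that switches the thin filament on, the inhibitory subunit Tnni2 showed the clearest change. It measured 11.13, 11.24 and 11.21 in F66;Dysf-/- muscle, against 11.39, 11.37 and 11.43 in F66 muscle. In the other groups Tnni2 measured 11.54, 11.47 and 11.52 with ACVR2B/Fc in Dysf-/- mice, 11.55, 11.46 and 11.51 with ACVR2B/Fc in wt mice, 11.45, 11.45 and 11.46 in Dysf-/- mice and 11.45, 11.44 and 11.54 in wt mice. All 3 F66;Dysf-/- arrays lay below the 15 others, and the F66 arrays lay just under those of the 4 groups without the transgene. How many of all genes had groups apart in such a way was not counted, here or for the genes below. Tnni2 fell by 16.3% in F66;Dysf-/- against Dysf-/- muscle, a log2 difference of -0.26 (SE 0.049, limma adjusted p = 0.000696). Against F66 muscle its log2 difference was -0.20 (SE 0.049, limma adjusted p = 0.00393).

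The tropomyosin-binding subunit Tnnt3 separated the groups along another line. It measured 12.33, 12.39 and 12.40 in F66;Dysf-/- muscle and 12.45, 12.40 and 12.39 in F66 muscle, against 12.57, 12.58 and 12.60 in Dysf-/- muscle and 12.48, 12.41 and 12.52 in wt muscle. The F66;Dysf-/- arrays overlapped with the F66 arrays and lay below every Dysf-/- array. Tnnt3 differed by -0.21 between F66;Dysf-/- and Dysf-/- muscle (SE 0.053, limma adjusted p = 0.00664) and by -0.04 between F66;Dysf-/- and F66 muscle (adjusted p = 0.609). The calcium-binding subunit Tnnc2 measured 13.36, 13.34 and 13.38 in F66;Dysf-/- muscle, against 13.53, 13.47 and 13.47 in F66 muscle. These groups did not overlap, and the log2 difference was -0.13 (SE 0.045, limma adjusted p = 0.0363), the smallest difference called among the 10 genes. Against Dysf-/- muscle, where the arrays overlapped, Tnnc2 differed by -0.06 (adjusted p = 0.299).

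The myosin light chains were the noisiest of the 10 genes. Mylpf, the regulatory light chain of fast fibers, measured 10.75, 10.97 and 10.72 in F66 muscle, against 10.40, 10.51 and 10.64 in wt muscle, groups that did not overlap. The log2 difference of 0.30 (95% interval 0.06 to 0.53) did not pass the test (limma adjusted p = 0.0877). In F66;Dysf-/- muscle Mylpf measured 10.56, 10.45 and 10.61, which lay below every F66 array, with a log2 difference of -0.27 that also did not pass (adjusted p = 0.0662). Its SD within groups was 0.142 and that of Myl1, the essential light chain, was 0.176, whereas the 8 other genes had SDs between 0.0289 and 0.0714. Myl1 spread from 11.66 on ACVR2B/Fc-injected wt replicate 2 to 12.38 on a Dysf-/- array, and wt replicate 2 was also low at 11.80. Dysf-/- muscle had 12.38, 12.36 and 12.24 and wt muscle 12.27, 11.80 and 11.99. That log2 difference, 0.31, was not called (limma adjusted p = 0.459).

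Actn3, the alpha-actinin that anchors thin filaments at the Z-disc of fast fibers, had the largest called difference between the F66 groups. It measured 12.80, 12.77 and 12.87 in F66;Dysf-/- muscle and 13.15, 13.00 and 13.04 in F66 muscle, against 12.98, 12.97 and 13.00 in Dysf-/- muscle and 12.97, 12.98 and 12.96 in wt muscle. With ACVR2B/Fc it measured 12.98, 13.01 and 12.96 in Dysf-/- mice and 13.03, 12.98 and 13.05 in wt mice. The F66;Dysf-/- arrays lay below all others. The 3 F66 arrays lay above all wt arrays, with a log2 difference of 0.09 that was not called (limma adjusted p = 0.231). Actn3 fell by 16.0% in F66;Dysf-/- against F66 muscle, a log2 difference of -0.25 (SE 0.048, limma adjusted p = 0.000738). Against Dysf-/- muscle the log2 difference was -0.18 (SE 0.048, limma adjusted p = 0.0107).

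Mybpc2, the fast form of myosin-binding protein C on the thick filament, measured 12.91, 12.95 and 12.95 in F66;Dysf-/- muscle, against 13.07, 13.08 and 13.11 in F66 muscle. No array overlapped, and the log2 difference was -0.15 (SE 0.050, limma adjusted p = 0.0290). Against Dysf-/- muscle, with 13.01, 13.05 and 12.95, Mybpc2 differed by -0.07 and was not called (adjusted p = 0.322).

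The 3 calcium-handling genes were not called in any comparison on the deposited scale. Atp2a1, the fast calcium pump SERCA1 of the sarcoplasmic reticulum, stayed between 13.46 and 13.55 on the 18 arrays. Casq1, which stores calcium inside the reticulum, stayed between 12.60 and 12.85, and Pvalb, the cytosolic calcium buffer parvalbumin, between 13.57 and 13.69. The log2 differences in F66;Dysf-/- against Dysf-/- muscle were -0.01 for Atp2a1, -0.05 for Casq1 and -0.05 for Pvalb. The 95% intervals of these differences reached from -0.11 to 0.08 for Atp2a1, from -0.18 to 0.09 for Casq1 and from -0.14 to 0.04 for Pvalb. Changes as large as the -0.26 of Tnni2 therefore lay outside all of these intervals.

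The first question was how the transgene acted when dysferlin was missing. In F66;Dysf-/- against Dysf-/- muscle, 3 of the 10 genes were lower (Tnni2, Tnnt3 and Actn3) and none was higher, against 18.4% of all genes lower and 15.2% higher. The 7 others were not called, with log2 differences between -0.13 for Myl1 and -0.01 for Atp2a1. All 10 log2 differences were below 0, with a median of -0.06, beside a median of -0.09 over all genes tested. At an unadjusted limma p under 0.05 the same 3 genes were lower, beside 26.3% of all genes lower. The 3 calls held when any 1 of the 6 arrays was left out. They were lost when all rows were tested (adjusted p = 0.0520 for Tnni2), only Tnni2 stayed called after centring on array medians, and none was called after scaling on general muscle fiber genes, which turned 6 of the 10 differences positive. Over all genes, 45.2% of the calls were higher on the deposited scale, 55.0% after quantile normalizing again, 70.3% after centring and 78.4% after scaling on fiber genes. Macrophage, matrix and regenerating fiber markers were higher and some endothelial and adipocyte markers lower in the same comparison, with values given further on.

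**Figure D2:**
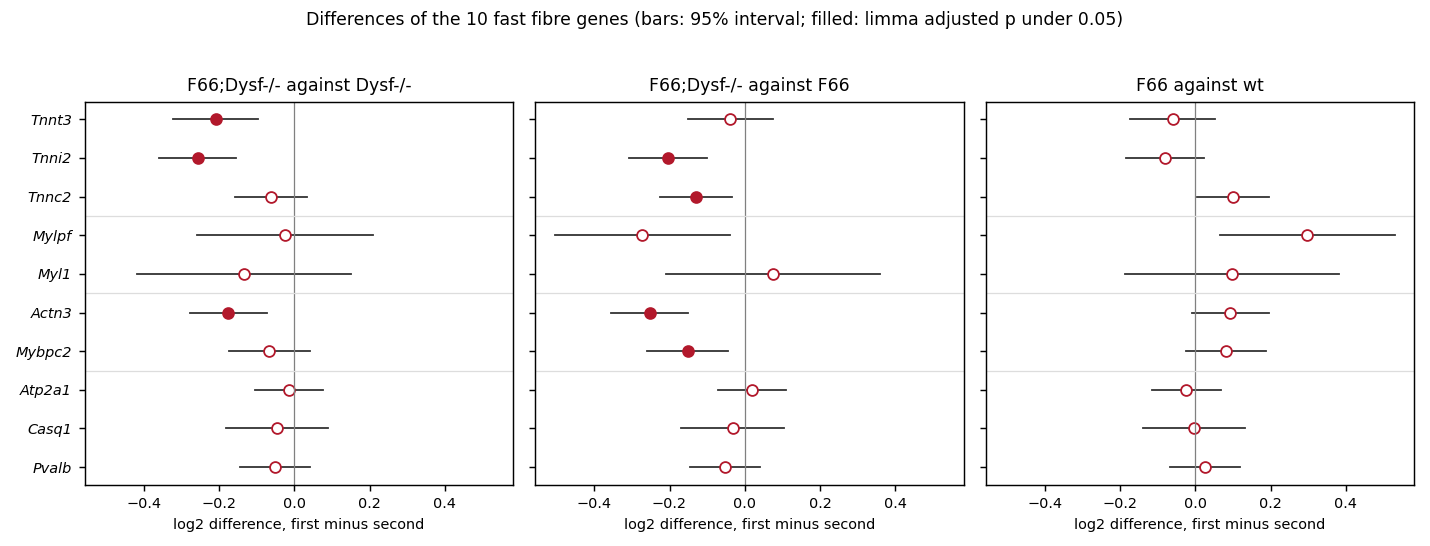
Log2 differences (x axis) of the 10 genes (y axis, ordered by role) in the 3 comparisons that involve the F66 transgene, with 95% intervals as bars and filled circles for an adjusted p under 0.05. Filled circles mark 3 genes in F66;Dysf-/- against Dysf-/-, 4 in F66;Dysf-/- against F66 and none in F66 against wt, and all filled circles lie left of 0.

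The second question was how the loss of dysferlin acted in mice that carry the transgene. In F66;Dysf-/- against F66 muscle, 4 of the 10 genes were lower (Actn3, Tnni2, Mybpc2 and Tnnc2) and none was higher, against 20.3% of all genes lower and 14.5% higher. The 6 others were not called, and their log2 differences lay between -0.27 for Mylpf and 0.07 for Myl1, with 0.02 for Atp2a1, -0.03 for Casq1 and -0.05 for Pvalb. The median of the 10 genes was -0.09 and that of all genes -0.08. Actn3 and Tnni2 stayed called when any 1 of the 6 arrays was left out, whereas Tnnc2 lost its call without each of the 6 arrays in turn (adjusted p between 0.0564 and 0.118) and Mybpc2 lost its call without each of them except F66 replicate 1 (adjusted p between 0.0564 and 0.0935). When the rows of the table were all tested or the arrays were centred on their medians, only Actn3 was called. Quantile normalizing again called 6 genes lower (Tnnt3, Tnni2, Mylpf, Actn3, Casq1 and Mybpc2, but not Tnnc2), with a median of -0.28 over the 10, and scaling on general muscle fiber genes turned Tnnc2 and Mybpc2 positive (0.07 and 0.05), ended the calls of Actn3 and Tnni2 and called 4 genes higher, namely Tnnt3, Atp2a1, Casq1 and Pvalb. That scaling moved the median of all genes to 0.12 and the share of higher calls to 83.9%, against 41.7% on the deposited scale and 54.9% after centring. After quantile normalizing again the median of all genes was -0.05 and 43.5% of the calls were higher. The share of all genes called lower there was not counted. Between the same groups 8 of 9 macrophage markers were higher (Mpeg1 3.66, Cd68 2.41) and Cd163 was lower (-0.76), 5 of 7 matrix markers were higher (Postn 3.49), Tnnt2 (1.86) and Myog (1.75) were higher, and 2 of 4 endothelial markers were higher. The part of these cells in the differences of the fast fiber genes was not tested.

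In F66 against wt muscle, where dysferlin was present, none of the 10 genes was called, against 8.11% of all genes higher and 5.5% lower. At an unadjusted limma p under 0.05, Mylpf and Tnnc2 were higher (log2 differences 0.30 and 0.10), and none was lower, beside 13.6% of all genes higher and 13.8% lower at that threshold. The methods' t-test without adjustment counted 3 genes higher, beside 21.1% of all genes in either direction. The F66 arrays lay above all wt arrays for Mylpf, Tnnc2, Actn3 (0.09) and Mybpc2 (0.08) and below all wt arrays for Tnni2 (-0.08), while those of Tnnt3 overlapped (-0.06). None of these differences was called, and the share of all genes with F66 arrays apart from the wt arrays was not counted. The median of the 10 genes was 0.05 and that of all genes -0.03. Scaling on fiber genes moved the median of all genes to -0.11 and called Tnni2 lower, and the share of higher calls over all genes was 59.6% on the deposited scale, 79.3% after centring and 31.5% after scaling on fiber genes. In this comparison 8 of 9 macrophage markers and 6 of 7 matrix markers were higher, and 3 of 4 endothelial and 2 of 3 adipocyte markers were lower.

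The effect of the transgene was then compared between the backgrounds, as the F66 effect in Dysf-/- mice minus the F66 effect in wt mice. It differed for 1 of the 10 genes, Actn3, by a log2 of -0.27 (SE 0.068, limma interaction contrast, adjusted p = 0.0130), against 7.93% of all genes lower and 8.54% higher. For Tnni2, Tnnc2 and Mylpf the differences of effects were -0.18, -0.16 and -0.32 and were not called (adjusted p = 0.0962, 0.0972 and 0.182). Leaving out any 1 of the 12 arrays left Actn3 as the only gene called. With the rows of the table all tested, Actn3 was no longer called, and after scaling on general muscle fiber genes Actn3 stood at -0.06 and was not called, Atp2a1 was called higher and 7 of the 10 differences of effects were positive (median 0.05, against -0.16 on the deposited scale). The difference of effects was positive and called for 7 of 9 macrophage markers, 4 of 7 matrix markers and both regenerating fiber markers, and negative and called for Cd163.

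The loss of dysferlin without the transgene left all 10 genes below the threshold in Dysf-/- against wt muscle, where 0.301% of all genes were higher and 0.188% lower. The log2 differences of the 10 genes lay between -0.03 and 0.31, and at an unadjusted limma p under 0.05 only Myl1 was higher and none was lower, beside 4.16% of all genes higher and 5.68% lower. ACVR2B/Fc injection called none of the 10 genes in wt mice, with log2 differences between -0.01 and 0.16, beside 0.0247% of all genes higher and 0.00494% lower. It called none in Dysf-/- mice either, with differences between -0.12 and 0.06, beside 0.0148% of all genes higher and 0.00987% lower. In both ACVR2B/Fc comparisons no gene of the 10 reached an unadjusted limma p under 0.05, beside 4.02% of all genes higher and 3.59% lower in wt mice and 11.2% higher and 7.61% lower in Dysf-/- mice. The methods' t-test without adjustment called none of the 10 either, beside 6.61% of all genes in wt mice and 13.4% in Dysf-/- mice.

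Other genes of the fast fiber program were described from a list of 11, of which 9 were measured by a row with 1 symbol. Of these 9, 8 were lower in F66;Dysf-/- than in Dysf-/- muscle and none was higher, with a median log2 difference of -0.26. They ranged from Cacna1s, the voltage sensor of the T-tubule, at -0.20 (limma adjusted p = 0.00425) to Mylk2, the kinase that phosphorylates the regulatory light chain, at -0.78 (limma adjusted p = 8.96e-08). Mylk2 averaged 11.41 in F66;Dysf-/- muscle, 11.95 in F66 muscle, 12.20 in Dysf-/- muscle and 12.14 in wt muscle. Against F66 muscle 4 of these 9 were lower in F66;Dysf-/- muscle and none higher, and in F66 against wt muscle 1 was lower, Ryr1, the calcium release channel (-0.27, limma adjusted p = 0.00331). Between F66;Dysf-/- and Dysf-/- muscle 4 of the 9 were called lower after centring on array medians and 3 after scaling on general muscle fiber genes, with none higher. Between F66;Dysf-/- and F66 muscle the scaling on fiber genes called Tpm1 and Ryr1 higher and only Mylk2 lower.

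The 4 measured regulators of the fast fiber program were all lower in F66;Dysf-/- than in Dysf-/- muscle under each scaling. Sox6, which represses slow genes, differed by -0.62 (SE 0.074), Eya1, a transcriptional coactivator, by -0.50 (SE 0.062), Tbx15, a T-box factor of fast glycolytic fibers, by -0.42 (SE 0.080) and Six4, a factor that binds MEF3 sites, by -0.40 (SE 0.076), with limma adjusted p-values between 9.06e-06 and 0.000766. In F66 against wt muscle Sox6 and Six4 were lower (-0.37 and -0.24, limma adjusted p = 0.00313 and 0.0468), and after centring on array medians only Sox6 was called. Tbx15 averaged 10.81 in F66;Dysf-/- muscle and 11.60 in F66 muscle, against 11.23 in Dysf-/- muscle and 11.55 in wt muscle. Tbx15 and Eya1 were also lower in F66;Dysf-/- than in F66 muscle (-0.79 and -0.41), while Sox6 and Six4 were not called. The effect of the transgene differed between backgrounds for Tbx15 and Eya1 (-0.47 and -0.36, limma adjusted p = 0.00967 and 0.0105), calls that were lost after scaling on general muscle fiber genes.

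**Figure D3:**
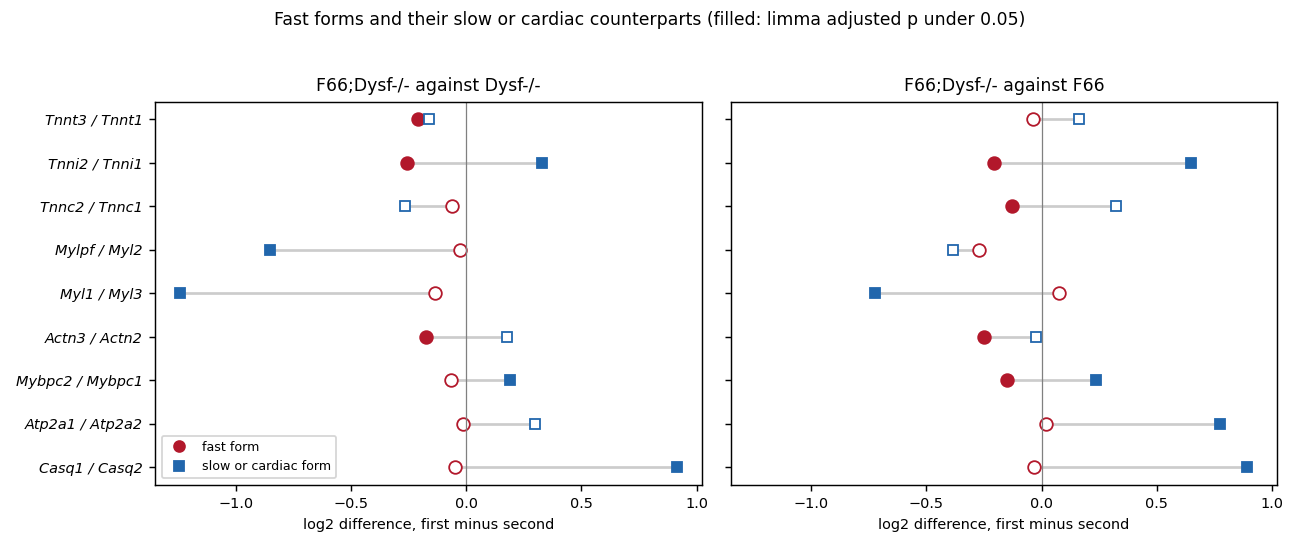
Log2 differences (x axis) of 9 fast forms (circles) and the slow or cardiac gene for the same position (squares), paired on the y axis, in F66;Dysf-/- against Dysf-/- (left) and against F66 (right), with filled symbols for an adjusted p under 0.05. Casq2 and Tnni1 lie right of 0 in both panels while Casq1 and Tnni2 lie near or left of 0, and Myl3 lies far to the left in both.

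The slow or cardiac forms of the same proteins moved in both directions. Of 10 such genes 9 were measured, and in F66;Dysf-/- against Dysf-/- muscle 3 were higher and 2 lower. Casq2, the cardiac and slow calsequestrin, averaged 8.15 in F66;Dysf-/- muscle and 7.23 in Dysf-/- muscle, a log2 difference of 0.91 (SE 0.098, limma adjusted p = 3.00e-06), beside -0.05 for Casq1. Tnni1, the slow inhibitory troponin, was higher by 0.33 (SE 0.118, limma adjusted p = 0.0412), beside -0.26 for Tnni2. Myl3, the slow ventricular essential light chain, averaged 8.80 in F66;Dysf-/- muscle, against 10.04 in Dysf-/- muscle, with a log2 difference of -1.24 (SE 0.175, limma adjusted p = 4.80e-05), beside -0.13 for Myl1. The other calls, Mybpc1 higher (0.19) and Myl2 lower (-0.85), and Atp2a2 below are named here after their values were seen.

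Against F66 muscle, F66;Dysf-/- muscle had 4 of the 9 slow forms higher and 1 lower. Atp2a2, the slow and cardiac calcium pump, averaged 8.37 in F66;Dysf-/- muscle and 7.60 in F66 muscle, a log2 difference of 0.78 (limma adjusted p = 0.000194), beside 0.02 for Atp2a1. Casq2 (0.89), Tnni1 (0.65) and Mybpc1 (0.23) were higher too, and Myl3 (-0.72) was lower. The effect of the transgene differed between backgrounds for 3 of the 9, Casq2, Atp2a2 and Tnni1, all more positive in Dysf-/- mice. Quantile normalizing the arrays again left 1 higher call, Casq2, in F66;Dysf-/- against Dysf-/- muscle, and in F66;Dysf-/- against F66 muscle it ended the call of Mybpc1 and called Actn2 lower. Within F66;Dysf-/- against Dysf-/- and within F66;Dysf-/- against F66, no scaling called a slow form in the direction opposite to another scaling. Between comparisons directions differed. Scaling on fiber genes called Actn2 higher in F66;Dysf-/- against Dysf-/- muscle. In F66 against wt muscle 1 of the 9 slow forms was called on the deposited scale, Myl3, with a log2 difference of -0.77 (limma adjusted p = 0.00749), and Myl3 was called lower under each other scaling too. The difference of F66 effects for Myl3 was -0.47 and was not called (limma interaction contrast, adjusted p = 0.232). Atp2a2 was called lower in F66 against wt muscle after scaling on fiber genes and after quantile normalizing again.

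**Figure D4:**
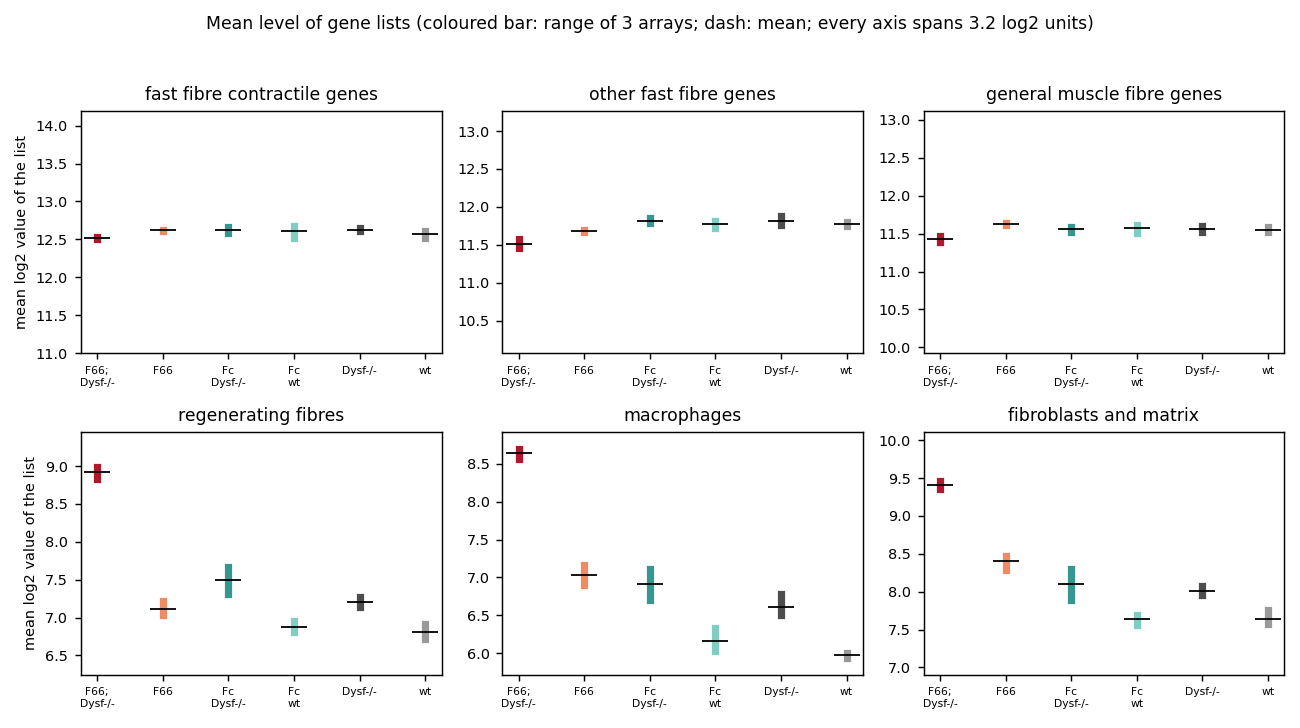
Mean log2 value of 6 gene lists (y axis, the same span of 3.2 log2 units in every panel) by group (x axis, Fc for ACVR2B/Fc injected), with a coloured bar for the range of 3 arrays and a dash for their mean. The fast fiber genes stay between 12.51 and 12.68 on all arrays, while the macrophage markers reach 8.56 to 8.70 in F66;Dysf-/- muscle and stay at 5.94 to 6.01 in wt muscle.

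The array samples held RNA of whole muscle, in which fewer fibers of a type and less RNA per fiber cannot be told apart. Markers of other cells moved with the F66;Dysf-/- group. All 9 measured macrophage markers of 10 listed were higher in F66;Dysf-/- than in Dysf-/- muscle, from Cd163 (0.48) to Cd68 (3.12), and their mean level lay at 8.56 to 8.70 in F66;Dysf-/- muscle, 6.91 to 7.17 in F66 muscle, 6.51 to 6.79 in Dysf-/- muscle and 5.94 to 6.01 in wt muscle. All 7 fibroblast and matrix markers were higher, with mean levels of 9.35 to 9.45 in F66;Dysf-/- muscle and 7.96 to 8.08 in Dysf-/- muscle. Myog and Tnnt2, the measured markers of regenerating fibers, were both higher (1.72 and 1.71). Of 4 endothelial markers 2 were lower (Kdr -0.77 and Tek -0.50), and of 3 measured adipocyte markers 2 were lower (Plin1 -0.60 and Lep -0.47).

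Genes that fibers of every type use moved less evenly. Of 9 measured general muscle fiber genes, 4 were lower and 1 was higher in F66;Dysf-/- against Dysf-/- muscle, from Tcap (-0.51), a cap protein of titin, to Des (0.13), the intermediate filament of muscle. The median of these 9 was -0.11 and that of the 10 fast fiber genes -0.06. Against F66 muscle 4 of these 9 were lower and none higher, with a median of -0.12, beside -0.09 for the fast fiber genes. The scaling on these 9 genes used their mean, which averaged 11.43 in F66;Dysf-/-, 11.63 in F66, 11.56 in Dysf-/- and 11.55 in wt muscle. In F66;Dysf-/- against F66 muscle, Myom1 (-0.60), Tcap (-0.49), Ldb3 (-0.33) and Ckm (-0.26) were lower. Des (-0.12), Neb (-0.05), Ttn (-0.01), Tpm2 (0.03) and Acta1 (0.06) were not called. That scaling therefore carries the changes of its own genes. The part of these other cells and of all fiber RNA in the differences of the fast fiber genes was not tested.

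The 10 genes were also compared with each other. Over the 18 arrays Actn3 correlated with Tnnc2 at r = 0.79 and with Mybpc2 at r = 0.72, and Tnnt3 with Tnni2 at r = 0.73, while Atp2a1 and Tnnc2 correlated at r = -0.29. These values describe 18 arrays that share 6 groups, and they are not independent of the group differences above. After each group's mean was subtracted, r was 0.56 for Actn3 with Tnnc2, 0.17 for Actn3 with Mybpc2 and 0.55 for Tnnt3 with Tnni2. Outside the list, the genes most alike to the mean profile of the 10, centred per gene, were Golga2 (r = 0.85), Ube2e1 (0.84), Sars (0.84), Hdlbp (0.83) and Kif16b (0.83), out of 20249 genes over 18 arrays. The most opposite were Ngfr (-0.83), Edil3 (-0.81), Rbmxl1 (-0.81), Enc1 (-0.80) and Cln6 (-0.80). None of these 10 is a sarcomere gene. The profile was centred but not scaled, so Myl1 and Mylpf, with the widest ranges (0.72 and 0.57 log2 units), weigh most in it. It stood at -0.077 on wt replicate 2 and -0.080 on ACVR2B/Fc-injected wt replicate 2, against -0.087 to -0.060 on the F66;Dysf-/- arrays.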

How the data were processed

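RNA of quadriceps muscle was measured on 18 arrays, 3 for each of 6 groups, and arrays were assigned to groups from the sample labels. The log2 values deposited by the authors were made with RMA in Partek against build mm9, per the submitters' processing notes, without stated versions. RMA makes the arrays alike in distribution, which removes part of any change shared by most genes. Each gene was taken from the row with 1 symbol in the platform annotation and the highest mean over all arrays (20259 genes of 115830 rows). The 10 genes and all lists were chosen with earlier results of these data known.

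Differences were tested with limma 3.58.1 in R 4.3.3 (6 group means, eBayes, 12 residual and 3.2 prior degrees of freedom), Benjamini-Hochberg adjusted over the 20259 genes and called at an adjusted p under 0.05. The study's methods give the 3 arrays of a group as biological replicates. Precision is set by how few arrays there are, and 3 against 3 arrays cannot give an exact permutation p below 0.1, so the tests rest on the spread pooled over groups. The comparisons share the control arrays, so their results are not independent of each other. The script was tested on simulated data. Named genes were the 10 members, the 5 genes most alike and the 5 most opposite to their mean centred profile, and per list those with the largest and smallest differences. Further genes of the lists, among them Tnni1 and several general muscle fiber genes, were named outside this rule with their values known. Tried in place of these were a fit to each pair of groups by itself, the t-test and the analysis of variance that the methods name, the replicate block, all rows, mean of the rows of a gene, no dim genes, quantile normalization again, centring on array medians, scaling on general muscle fiber genes, eBayes with trend and robust, and leaving out each array. Myh2, Myh4, Myh7, Lyz2, Cfd, Myh3 and Myh8 of the lists were not analysed here, and some other items are not reported here. Promoter windows came from RefSeq and figures from Python 3.11.15 with matplotlib 3.10.9.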

Additional observations from a re-analysis of the deposited data

Results flagged for a closer look

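The effect of the F66 transgene on Actn3 differed between backgrounds. Actn3 was lower by a log2 of -0.18 in F66;Dysf-/- than in Dysf-/- muscle. It stood at 0.09 in F66 against wt muscle, which was not called (limma adjusted p = 0.231). The difference of the effects was -0.27 (limma interaction contrast, adjusted p = 0.0130). The 3 F66;Dysf-/- arrays lay below the 3 Dysf-/- arrays and the 3 F66 arrays above the 3 wt arrays, and the share of all genes with such a separation was not counted. The call was lost with all rows tested (adjusted p = 0.233) and after scaling on general muscle fiber genes (-0.06). No other gene of the 10 had a called difference of effects on the deposited scale in the main limma fit. Tnnt3 and Tnni2 were also called after quantile normalizing again, Tnnc2 by eBayes with trend and robust, and Atp2a1, as higher, after scaling on fiber genes. An ordinary t-test of the same contrast, a test that the methods do not name, also called Tnni2, Tnnc2 and Mybpc2 after adjustment, beside 15% of all genes.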

How the results depend on the processing

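The alternatives changed several counts of called genes among the 10. With all 115830 rows tested, the counts were 0 over the 6 groups, 0 in F66;Dysf-/- against Dysf-/-, 1 in F66;Dysf-/- against F66 (Actn3) and 0 for the difference of F66 effects. There both the eBayes fit and the adjustment ran over all rows, and their parts were not told apart. Quantile normalizing again gave 6 over the 6 groups and 3 for the difference of effects. Centring on array medians gave 0 over the 6 groups, 1 in F66;Dysf-/- against Dysf-/- and 1 in F66;Dysf-/- against F66. Scaling on general muscle fiber genes gave 0 in F66;Dysf-/- against Dysf-/- and 1 in F66 against wt. It left the totals at 4 in F66;Dysf-/- against F66 and 1 for the difference of effects, but these were other genes, called higher in place of lower. For the difference of effects, an ordinary t-test of the contrast gave 4, beside 15% of all genes called after adjustment, and eBayes with trend and robust gave 2. Leaving out 1 array gave 2 to 3 in F66;Dysf-/- against F66, and quantile normalizing again gave 6. Apart from the t-test, the share of all genes called was not counted for these alternatives, so their counts have no such share beside them. The cause of these changes was not tested.

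Signs also turned. After centring, F66;Dysf-/- against Dysf-/- gave 0.075 for Atp2a1, 0.042 for Casq1, 0.022 for Mybpc2, 0.064 for Mylpf, 0.038 for Pvalb and 0.027 for Tnnc2, F66;Dysf-/- against F66 gave 0.017 for Casq1 and 0.011 for Tnnt3, and F66 against wt gave 0.0026 for Tnnt3. After quantile normalizing again, F66;Dysf-/- against F66 gave -0.071 for Atp2a1 and -0.15 for Myl1, and F66 against wt gave 0.024 for Tnnt3. After scaling on fiber genes, F66;Dysf-/- against Dysf-/- gave 0.11 for Atp2a1, 0.082 for Casq1, 0.062 for Mybpc2, 0.10 for Mylpf, 0.077 for Pvalb and 0.066 for Tnnc2, F66;Dysf-/- against F66 gave 0.16 for Casq1, 0.045 for Mybpc2, 0.14 for Pvalb, 0.068 for Tnnc2 and 0.16 for Tnnt3, and the difference of effects gave 0.045 for Tnnc2 and 0.031 for Tnni2. Leaving out 1 array gave -0.091 to 0.061 for Mylpf in F66;Dysf-/- against Dysf-/- and -0.0019 to 0.031 for Atp2a1 in F66;Dysf-/- against F66. Of 39 differences not printed, none called, 29 changed sign under some alternative.

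The replicate number as a block left the counts at 3 over the 6 groups, 3 in F66;Dysf-/- against Dysf-/-, 4 in F66;Dysf-/- against F66, 1 for the difference of effects and 0 elsewhere. Same-numbered arrays deviated together at r = -0.08 to 0.29, with 7 of 45 pairs over 0.1 and no comparison with all 3 pairs over 0.1, so the numbers were not taken as pairs. All 7 involved ACVR2B/Fc-injected arrays, with r = 0.21 to 0.29 among replicate 2 of the wt group and both injected groups.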
